A study of Xenopus laevis with 4 samples.

Results

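Integrins, laminins and the other receptors and matrix proteins of the basement membrane were followed in posterior explants of *Xenopus laevis* embryos. The gene set held every gene model whose symbol starts with itga or itgb, for integrin subunits and the beta-like itgbl1. The itgb1bp genes, for proteins that bind the beta-1 tail, were left out. Gene models starting with lama, lamb or lamc and a digit (laminin chains) were added, and also fn1, nid1, nid2, hspg2 and dag1. The symbol agrn (agrin) was sought too but matched no gene model. Genes annotated under other names, second copies included, would be missed by this rule. That gave 56 of the 39176 gene models in the table, 34 L copies and 22 S copies, the pairs of homeologous genes left by the whole-genome duplication of this species. There were 22 integrin alpha, 14 integrin beta and 20 matrix or dystroglycan gene models. The 14 include the 2 itgbl1 copies, which are beta-like genes rather than subunits.

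Tailbud embryos of stage 26 were cut behind the otic vesicle, and the posterior explants were kept for 3 h with 0.5 mM picrotoxin, a blocker of the chloride channel of GABA-A receptors, or as controls. The control medium and the strain are not stated in the sources used here. Each group had 2 libraries, and each library pooled explants of 3 embryos whose ventral yolk was removed after the incubation. Pools of whole explants mix epidermis, muscle, neural tube and other tissues, so fewer cells of a type and less RNA per cell cannot be told apart.

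The libraries held 18164631 to 20974160 estimated counts. Ribosomal RNA gene models took 25.1% of them in picrotoxin replicate 2 and 38.0% to 42.0% in the other libraries, which left 11258577 to 15707090 counts for other genes. Of 23 gene models of posterior trunk and tail markers, 21 had enough counts to test, with a summed level of 373.5 to 425.7 CPM (counts relative to the library total, scaled between libraries by the trimmed mean of M values). Among the 15 of the forebrain, eye and midbrain, 7 had enough counts to test and 2 were at 0 in every library. The sum was 33.0 to 41.3 CPM, most of it from emx2.L at 18.01 to 23.87 CPM. Whether the emx2 counts came from tissue in front of the cut was not tested. Of the neural tube list, all 10 gene models had a negative log2 fold change and 8 an unadjusted p under 0.05, beside 4.16% of all genes lower at that p, but 0 were called. Their sum was 375.3 and 338.0 CPM in control and 291.8 and 267.4 CPM in picrotoxin libraries. The part of neural tissue in the values of the set was not tested. No gene of the notochord, vessel or endoderm lists was called. The endoderm sum was highest in picrotoxin replicate 2, at 428.6 CPM against 229.9 to 301.2 CPM. Most of it came from 1 gene, a2m.S, at 374.3 CPM in picrotoxin replicate 2 and 193.9 to 258.3 CPM in the other libraries.

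Integrins are receptors made of an alpha and a beta subunit that span the cell membrane and tie the cytoskeleton to the matrix outside. Laminins are trimers of an alpha, a beta and a gamma chain that form the sheet of the basement membrane, where nidogens and perlecan (hspg2) join them to collagen IV. Dystroglycan (dag1) is a laminin receptor that connects to dystrophin in muscle, and fibronectin (fn1) is the matrix ligand on which mesoderm cells of the frog embryo move at gastrulation. CPM are not divided by transcript length here, so levels are compared between libraries and not between genes.

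No integrin, laminin or other gene of the set passed an adjusted p of 0.05 between picrotoxin and control. Of the 56 gene models, 49 had enough counts to test, and 0 of them were called in edgeR (quasi-likelihood test, p adjusted by Benjamini-Hochberg over all 26752 genes tested). Of all genes, 0.176% were called, 0.0822% higher and 0.0935% lower with picrotoxin. DESeq2 called 0 of the set as well. At an unadjusted p under 0.05 there were 7 of the 49 by edgeR, beside 7.51% of all genes. By DESeq2 there were 3 of the 49, beside 2.71% of all genes. Of the 7 by edgeR, itga3.S, itga7.L, itgb4.L, itgb8.L, fn1.S and lamb4.L were higher with picrotoxin (3.35% of all genes). The other, itga9.L, was lower (4.16% of all genes). The log2 fold change was above 0 in 35 of the 49 genes and below 0 in 14, and its median was 0.06. Over all genes 13355 were above 0 and 13397 below, with a median of -0.00. The 2 pools of a group are biological replicates by the study's description, and whether they came from different clutches is not stated. The p-values thus refer to the spread between these pools, with the variance of each gene drawn toward that of other genes.

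**Figure D1:**
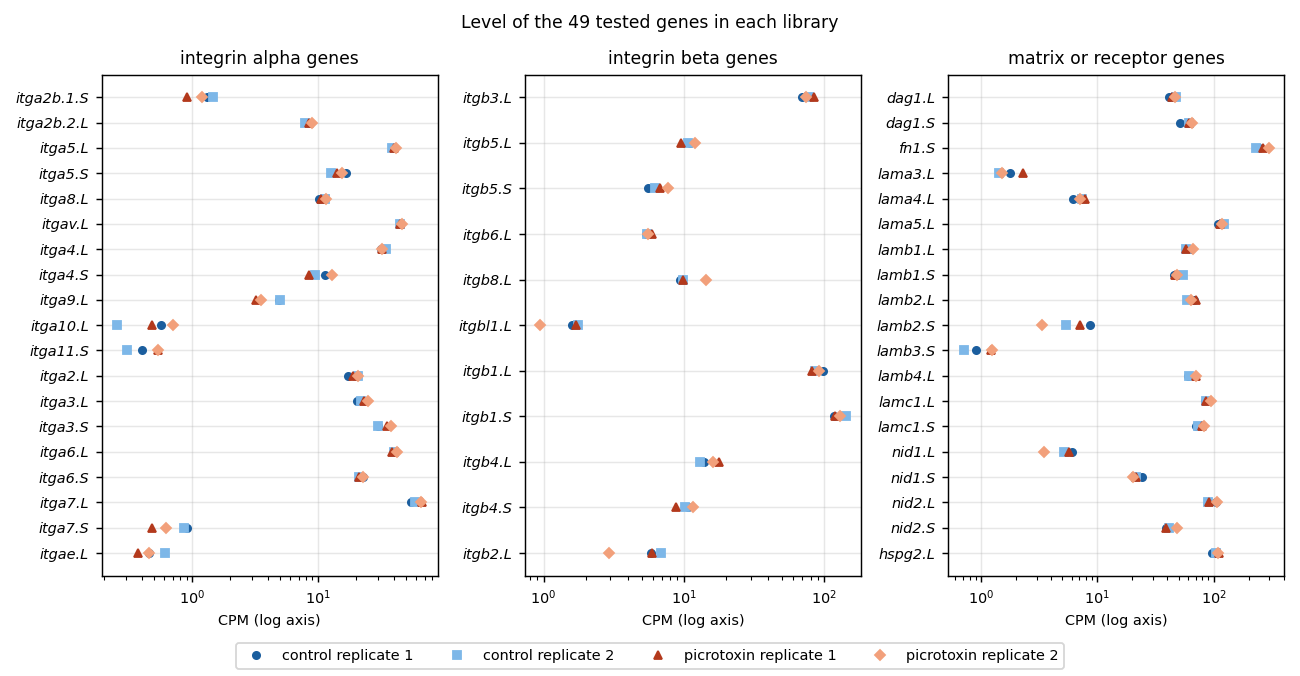
Level of each of the 49 tested genes in the 4 libraries, in CPM on a log axis, with integrin alpha genes, integrin beta genes, and matrix and dystroglycan genes in separate panels. The points of a gene lie close together for most genes. Picrotoxin replicate 2 stands apart for several genes, such as itgb2.L (2.93 CPM against 5.80 to 6.86) and itgb8.L (14.3 CPM against 9.38 to 9.88). Another is nid1.L (3.46 CPM against 5.19 to 6.02).

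The intervals around these differences were narrow for the well counted genes. With 2 residual degrees of freedom, edgeR draws the variance of a gene toward that of other genes. The widths thus rest in part on other genes, and the intervals are not adjusted for the number of genes. For 34 of the 49, the 95% interval of the log2 fold change lay within a 1.5-fold change either way. The same held for 58.8% of all genes. Among these 34 were itga3.L, itga3.S, itga5.L, itga6.L, itgb1.L, itgb1.S, lama5.L and lamc1.L. Intervals were wide for genes with few counts, such as itga10.L and itga11.S, and for lamb2.S, whose libraries differed widely within each group, and they say little there. Both picrotoxin libraries lay above both controls for 14 of the 49 genes, beside 18.2% of all genes, and below both for 4, beside 18.9% of all genes.

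**Figure D2:**
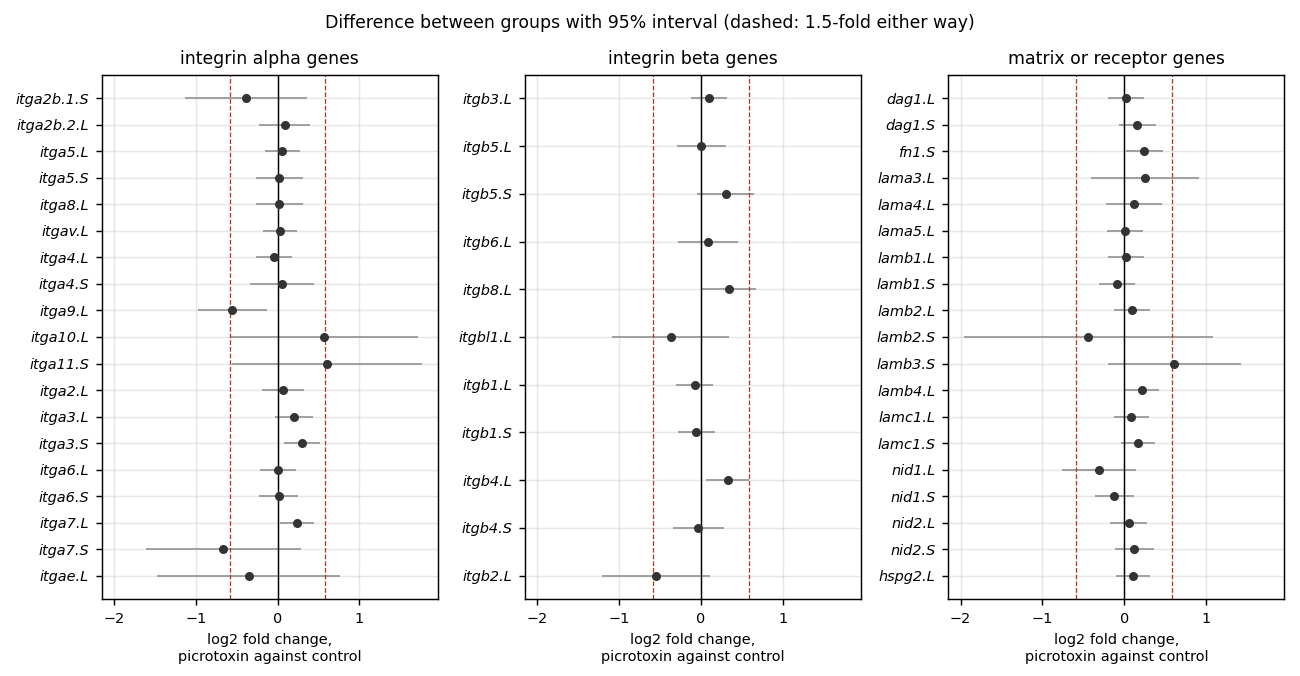
Log2 fold change of picrotoxin against control for the 49 tested genes, with bars for the 95% interval from edgeR's quasi-likelihood fit and dashed lines at 1.5-fold either way. Most bars cross 0, and 34 of the 49 stay inside the dashed lines.

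Laminin-binding alpha subunits were counted from both copies of itga3 and itga6 and almost wholly from the L copy of itga7. The itga3.S gene, whose product pairs with the beta-1 subunit in epithelia such as skin, stood at 29.7 and 29.6 CPM in control replicates 1 and 2 and at 35.1 and 38.1 CPM in picrotoxin replicates 1 and 2. The picrotoxin libraries were both above the controls, a log2 fold change of 0.30 ± 0.11 (SE; 95% interval 0.08 to 0.52; adjusted p = 0.445, edgeR). Its L copy stood at 20.2 and 21.7 CPM in control and 23.3 and 24.9 CPM in picrotoxin libraries, again without overlap (log2 fold change 0.20 ± 0.11, adjusted p = 0.735, edgeR).

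The muscle laminin receptor subunit itga7.L stood at 54.5 and 58.2 CPM in control and 67.3 and 65.8 CPM in picrotoxin libraries. The groups did not overlap, and the log2 fold change was 0.24 ± 0.10 (95% interval 0.03 to 0.45; adjusted p = 0.576, edgeR). Log2 fold changes of skeletal muscle markers lay on both sides of 0. Of 12 gene models 0 were called, and 6 had a positive and 6 a negative log2 fold change. Both picrotoxin libraries lay above both controls in 3 of the 12, beside 18.2% of all genes, and below both in 3, beside 18.9%. The summed level of the 12 was 9307 and 7663 CPM in control and 8339 and 7320 CPM in picrotoxin libraries. On the log2 scale the creatine kinase copies were at -0.32 (ckm.L) and 0.54 (ckm.S). Their control means were 1831 CPM for ckm.L and 2.94 CPM for ckm.S, so nearly all counts of this pair came from ckm.L. The myogenic factor gene myod1.S was at 0.29. The part of muscle content in the itga7.L values was not tested.

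The itga6 copies, which pair with beta-1 or with the hemidesmosome subunit beta-4, were nearly level. The itga6.L copy stood at 40.3 and 39.7 CPM in control and 38.3 and 42.1 CPM in picrotoxin libraries, a log2 fold change of 0.01 ± 0.11 (95% interval -0.21 to 0.22). The control values lay between the picrotoxin values. The itga6.S copy was at 0.02, with an interval of -0.22 to 0.25.

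Of 6 tested genes for alpha subunits that bind fibronectin and other RGD ligands, 5 had a log2 fold change of 0.02 to 0.09 and itga2b.1.S was at -0.38. The fibronectin receptor gene itga5.L stood at 39.5 and 38.2 CPM in control and 39.6 and 41.2 CPM in picrotoxin libraries (log2 fold change 0.06, 95% interval -0.15 to 0.27). The gene itgav.L, whose product pairs with several beta subunits, stood at 44.6 and 44.3 CPM in control and 44.8 and 46.1 CPM in picrotoxin libraries (0.03, interval -0.18 to 0.24). In both genes the picrotoxin values lay above the controls, but the log2 fold change was smaller than its standard error, and that of itgav.L was negative in 1 of 12 alternative settings. Their intervals leave out a change of 1.5-fold in either direction. The nephronectin receptor gene itga8.L was at 0.02, and itga2b.2.L, a homologue of the alpha subunit of platelets, at 0.09. The related itga2b.1.S stood at 1.31 and 1.46 CPM in control and 0.906 and 1.20 CPM in picrotoxin libraries, with 17 to 29 counts in a library. Its groups did not overlap, and its interval was wide, from -1.13 to 0.36.

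The alpha subunits itga4 and itga9 are related in sequence and bind fibronectin splice forms, the adhesion molecule VCAM or tenascin in mammals. The itga4.L copy stood at 31.5 and 34.5 CPM in control and at 32.0 CPM in both picrotoxin libraries, a log2 fold change of -0.05 (95% interval -0.27 to 0.17). The itga9.L gene stood at 4.89 and 4.99 CPM in control and 3.20 and 3.50 CPM in picrotoxin libraries. It was the only gene of the set that was lower with an unadjusted p under 0.05, at a log2 fold change of -0.56 ± 0.21 (95% interval -0.98 to -0.13; adjusted p = 0.471, edgeR). It had 60 to 99 counts in a library.

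Collagen-binding alpha subunits were represented by itga2.L, at 17.2 and 20.7 CPM in control and 19.0 and 20.7 CPM in picrotoxin libraries (log2 fold change 0.07). The itga1.S, itga10.L, itga11.L and itga11.S genes had 1 to 17 counts in a library. Their levels were near the limit of detection at this depth, and itga1.S and itga11.L were not tested.

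The common partner subunit beta-1 was counted from both copies. The itgb1.L copy stood at 98.1 and 85.9 CPM in control and 82.1 and 92.1 CPM in picrotoxin libraries, a log2 fold change of -0.08 ± 0.11 (95% interval -0.30 to 0.14). The itgb1.S copy stood at 117 and 142.8 CPM in control and 119.9 and 130.5 CPM in picrotoxin libraries, a log2 fold change of -0.05 ± 0.11 (interval -0.28 to 0.18). The groups overlapped in both copies, and the controls differed from each other by more than the group means did.

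Of the hemidesmosome subunit beta-4, the L copy stood at 13.98 and 13.11 CPM in control and 17.95 and 16.12 CPM in picrotoxin libraries. The log2 fold change of itgb4.L was 0.33 ± 0.13 (95% interval 0.07 to 0.59; adjusted p = 0.505, edgeR). The S copy stood at 10.8 and 10.2 CPM in control and 8.74 and 11.7 CPM in picrotoxin libraries, so its groups overlapped (-0.03, interval -0.34 to 0.28). The difference between the copies was not tested.

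Epidermis holds hemidesmosomes and the itga3 product, and its markers were compared beside these genes. Of 12 gene models, krt12.5.S rose, from 643 and 714 CPM in control to 1139 and 1230.0 CPM in picrotoxin libraries (log2 fold change 0.80, adjusted p = 0.000593, edgeR), and 11 did not pass. The log2 fold change was positive for 9 of the 12, with tp63.L, which marks basal epidermis, at 0.31 (adjusted p = 0.397, edgeR). The other copy, tp63.S, was at 0.09, with overlapping groups. The 3 below 0 were krt70.S, krt70.L and krt12.4.L, at -0.09 to -0.02. The summed level of the list was 12697 and 11610.0 CPM in control and 12693 and 13785 CPM in picrotoxin libraries. The part of epidermal content in the itga3 and itgb4 values was not tested.

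The 5 tested genes for beta subunits that pair with alpha-V had log2 fold changes of 0.00 to 0.34. The itgb3.L gene stood at 69.8 and 77.4 CPM in control and 84.6 and 73.8 CPM in picrotoxin libraries (log2 fold change 0.10, 95% interval -0.12 to 0.33). The itgb5.L copy stood at 11.1 and 10.6 CPM in control and 9.59 and 12.0 CPM in picrotoxin libraries (0.00, interval -0.30 to 0.30). Its S copy stood at 5.51 and 6.25 CPM in control and 6.82 and 7.71 CPM in picrotoxin libraries (0.31, interval -0.04 to 0.66). The groups overlapped for itgb3.L and itgb5.L but not for itgb5.S.

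The itgb8.L gene, whose product with alpha-V activates TGF-beta in mice, stood at 9.38 and 9.88 CPM in control. It stood at 9.86 and 14.3 CPM in picrotoxin replicates 1 and 2. Picrotoxin replicate 2, whose ribosomal RNA share was the lowest, was above the other libraries, and picrotoxin replicate 1 lay between the controls. A link between that share and the itgb8.L value was not tested. The log2 fold change of 0.34 ± 0.16 (adjusted p = 0.661, edgeR) was 0.04 without picrotoxin replicate 2 and 0.57 without picrotoxin replicate 1.

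Leukocyte integrins were followed through itgb2.L, the beta subunit of neutrophils and macrophages. It stood at 5.80 and 6.86 CPM in control, 5.91 CPM in picrotoxin replicate 1 and 2.93 CPM in picrotoxin replicate 2. The groups overlapped, with a log2 fold change of -0.55 ± 0.29 (adjusted p = 0.735, edgeR). Without picrotoxin replicate 1 it was called (-1.11, adjusted p = 0.0150, edgeR, with the remaining picrotoxin library assumed to vary like the controls), and without picrotoxin replicate 2 it was at -0.10.

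The myeloid genes mpo, lcp1 and spi1, chosen after their values were seen, had the same low library. The spi1 copies had only 11 to 40 counts in a library. For spi1.S, control replicate 1 was at 0.625 CPM and picrotoxin replicate 2 at 0.536 CPM, on 11 and 13 counts. The myeloperoxidase gene mpo.L stood at 17.8 and 27.0 CPM in control and 28.4 and 11.4 CPM in picrotoxin libraries, and mpo.S at 29.4 and 38.0 CPM in control and 35.7 and 18.6 CPM in picrotoxin libraries. The leukocyte actin-bundling gene lcp1.L stood at 7.96 and 9.38 CPM in control and 8.42 and 3.59 CPM in picrotoxin libraries. Over the whole list of 16 blood and myeloid gene models, 9 were tested, 0 were called and all of those 9 had a negative log2 fold change. The summed level of the list was 72.6 and 100.8 CPM in control and 93.9 and 48.2 CPM in picrotoxin libraries. The cebpa copies differed less in that library, with cebpa.L at 7.90 and 10.5 CPM in control and 8.42 and 6.47 CPM in picrotoxin libraries and cebpa.S lowest in control replicate 1. Globin genes of the list were scarcely counted, with hbg2.L at 0 in every library. The part of myeloid cells in the itgb2.L values was not tested. Other leukocyte integrin genes were scarcely counted, with itgb7.L and itgae.L at 2 to 12 counts in a library.

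**Figure D3:**
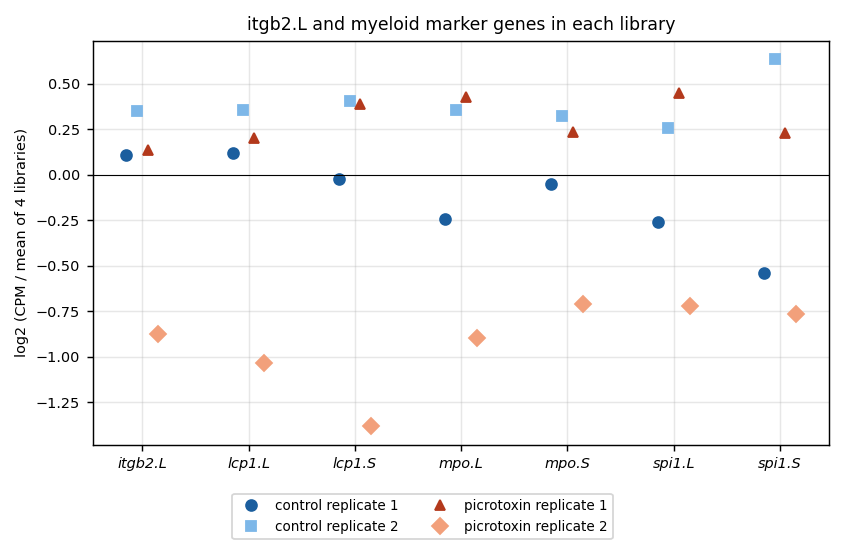
Level of itgb2.L and of the myeloid marker genes lcp1, mpo and spi1 (L and S copies) in each library, as log2 of the CPM over the mean of the 4 libraries. The marker genes shown were chosen after their values were seen. Picrotoxin replicate 2 is the lowest library for all 7 genes shown, and picrotoxin replicate 1 lies among or above the controls. Of the same list but not shown, cebpa.S was lowest in control replicate 1 (3.58 CPM) and hba3.L in picrotoxin replicate 1 (0.479 CPM). The spi1 copies had 11 to 40 counts in a library.

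Fibronectin gene fn1.S stood at 247.8 and 229.2 CPM in control and at 266.1 and 300.1 CPM in picrotoxin libraries. The groups did not overlap, and picrotoxin replicate 2 was the highest. The log2 fold change was 0.25 ± 0.11 (95% interval 0.03 to 0.47; adjusted p = 0.581, edgeR). This gene lies on chromosome 9_10S, whose median gene deviated by 0.01 and -0.09 on the log2 scale in control replicates 1 and 2 and by 0.04 in both picrotoxin libraries. With the chromosome medians of each library removed, fn1.S was at 0.16, itga3.S at 0.21, itgb5.S at 0.21 and itgb4.S at -0.12, all on 9_10S. Without picrotoxin replicate 2, fn1.S was also at 0.16.

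Laminin alpha chains were counted from lama5.L, lama4.L and lama3.L, the 3 gene models with such symbols. No gene model carried the symbol lama1 or lama2, and models under other names were not searched for. The lama5.L gene, an alpha chain of epithelial basement membranes, stood at 108.9 and 121.6 CPM in control and 114.0 and 118.2 CPM in picrotoxin libraries. The picrotoxin values lay between the controls, at a log2 fold change of 0.01 ± 0.10 (95% interval -0.20 to 0.22). The lama4.L gene, a chain of vessel walls and mesenchyme, was at 0.12, and lama3.L, with 28 to 43 counts in a library, at 0.25.

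None of the 6 tested laminin beta chain genes was called, and both picrotoxin libraries lay above both controls in lamb4.L and lamb3.S. The lamb4.L gene stood at 60.4 and 61.2 CPM in control and 70.6 and 70.8 CPM in picrotoxin libraries, and both groups were narrow and apart. The log2 fold change was 0.22 ± 0.10 (95% interval 0.01 to 0.43; adjusted p = 0.636, edgeR), and it ran from 0.21 to 0.23 when each library was left out in turn. The gene is among the 10 of the set with the smallest p, a choice that itself favours close values within a group. The narrow range with left-out libraries rests in part on that choice. The lamb4.L neighbour lamb1.L, with 1 annotated gene between them on chromosome 3L, was at 0.02, and lamb1.S at -0.09. The lamb2.L copy, a chain of muscle and synaptic basement membranes, was at 0.09. The lamb2.S copy stood at 8.58 and 5.40 CPM in control and 7.14 and 3.34 CPM in picrotoxin libraries, a spread within each group that left an interval of -1.96 to 1.09. The lamb3.S gene, a beta chain of epithelial laminin, stood at 0.909 and 0.706 CPM in control and 1.23 and 1.24 CPM in picrotoxin libraries. With 14 to 30 counts in a library, its log2 fold change was 0.61 ± 0.39 (95% interval -0.20 to 1.43; adjusted p = 0.779, edgeR).

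The gamma chain shared by most laminins, lamc1, was counted from both copies. The lamc1.L copy stood at 84.3 and 86.5 CPM in control and 86.1 and 95.2 CPM in picrotoxin libraries (log2 fold change 0.09, 95% interval -0.13 to 0.30). The lamc1.S copy stood at 70.8 and 73.7 CPM in control and 79.3 and 83.2 CPM in picrotoxin libraries (0.17, interval -0.04 to 0.38; adjusted p = 0.757, edgeR). The groups overlapped for the L copy and not for the S copy. With the chromosome medians of each library removed, lamc1.S, on chromosome 4S, was at 0.09.

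No nidogen, perlecan or dystroglycan gene was called, and their log2 fold changes lay between -0.31 and 0.16. The nid2.L copy stood at 103.8 and 88.6 CPM in control and 91.8 and 107.7 CPM in picrotoxin libraries (log2 fold change 0.05, 95% interval -0.18 to 0.28). The perlecan gene hspg2.L stood at 97.6 and 105.6 CPM in control and 110.7 and 108.2 CPM in picrotoxin libraries (0.11, interval -0.10 to 0.32). The groups overlapped for nid2.L and were just apart for hspg2.L. Dystroglycan copies dag1.L and dag1.S were at 0.03 (interval -0.19 to 0.25) and 0.16 (interval -0.06 to 0.38), with overlapping groups in both. The nid1.L copy was at -0.31 (interval -0.76 to 0.14), with its lowest value, 3.46 CPM, in picrotoxin replicate 2.

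**Figure D4:**
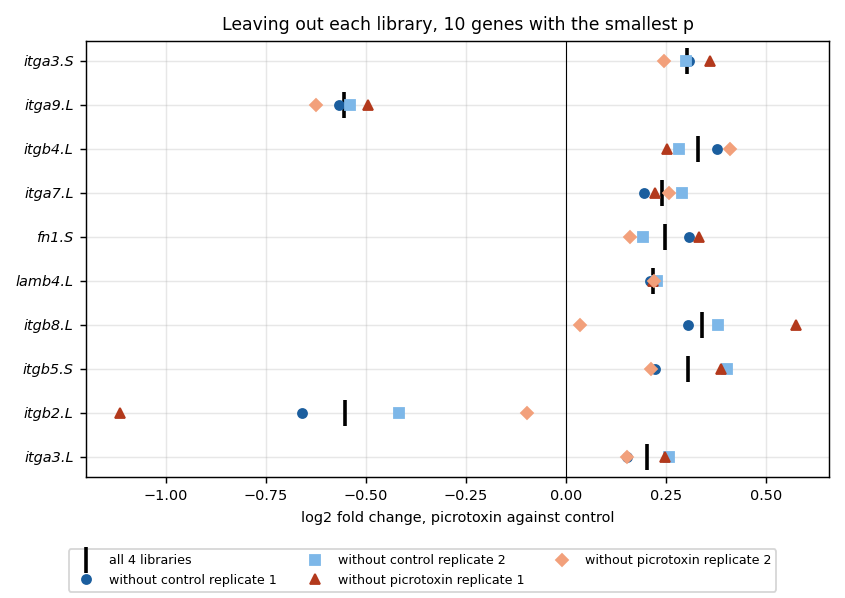
Log2 fold change of the 10 genes of the set with the smallest p, from all 4 libraries (black bars) and with each library left out in turn (coloured points). The lamb4.L and itga7.L points stay close to their bars, while itgb8.L runs from 0.04 to 0.57 and itgb2.L from -1.11 to -0.10. A choice by small p itself favours genes with close values within a group.

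Both homeologs of 18 genes were in the set, and their use varied widely from gene to gene. The share of the L copy, as a percentage of the counts of both copies over all libraries, was over 90% in 5 pairs, beside 7.98% of the 7159 pairs in the whole table. In 10 pairs it was between 25% and 75%, beside 68.0% of all pairs, in 2 it was under 25%, beside 10.6% of all pairs, and in itga4 it was 75.3%. Shares rest on estimated counts and on copies whose lengths may differ, and how well reads of the copies were told apart is not known. The intervals below (Wilson, 95%) cover counting error only.

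In itga7 the L copy took 98.4% to 99.3% of the counts in the 4 libraries, with itga7.S at 9 to 17 counts a library against 959 to 1597 for itga7.L. In itga8 it took 95.7% to 97.8%, in itgb8 95.1% to 98.0% and in lamb2 88.7% to 95.1%. The intervals of single libraries reached at most 3.25 percentage points either way in these 4 pairs. The other pair over 90%, itgbl1, had as few as 25 counts in a library, with intervals of up to 11.4 points. The opposite held for nid1, where the L copy took 14.6% to 20.9% and nid1.S the rest. The other pair under 25%, itga11, had as few as 7 counts in a library, with intervals of up to 24.8 points. Other receptor genes were counted from both copies, with L shares of 64.0% to 65.6% in itga6, 70.2% to 75% in itga5, 37.6% to 45.6% in itgb1 and 41.5% to 44.5% in dag1. The laminin pairs lamb1 (51.4% to 58.3%) and lamc1 (52.1% to 54.3%) were near even.

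The L share was lower in both picrotoxin libraries in 4 pairs (itga3, dag1, lamc1 and itgb5), beside 19.7% of all pairs, and higher in 2 (itgb4 and itga7), beside 14.2% of all pairs. For itgb4 it was 56.4% and 56.2% in control and 67.3% and 57.9% in picrotoxin libraries, with intervals of at most 4.63 percentage points either way. With 2 libraries a group, an exact permutation test cannot give a p under 0.333, so these shares were not tested.

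**Figure D5:**
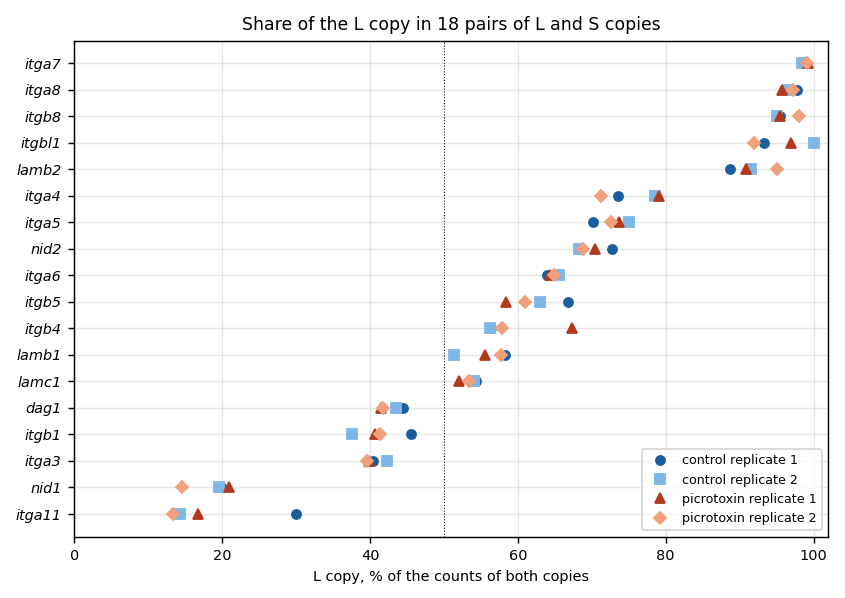
Share of the L copy among the counts of both copies, in percent, for 18 pairs in each of the 4 libraries, with a dotted line at 50%. The itga7, itga8, itgb8, itgbl1 and lamb2 pairs lie near the right end in every library, and nid1 and itga11 near the left. The itgbl1 and itga11 shares rest on few counts. The shares of itga6 and lamc1 span at most 2.2 percentage points over the libraries.

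Annotated transcripts of 1 gene shared its counts in different proportions. In fn1.S, which is alternatively spliced in vertebrates, the leading of 5 transcripts took 60.6% and 55.1% of the counts in control and 35.6% and 48.4% in picrotoxin libraries. The groups did not overlap, and the picrotoxin libraries were farther from each other than the controls were. In itgb4.L the leading of 2 transcripts took 100% and 94.0% in control and 68.1% and 87.4% in picrotoxin libraries. The leading share was instead higher in both picrotoxin libraries in lama5.L, itgb4.S, dag1.S and itga2b.1.S. For itgb4.S it was 77.5% and 75.7% in control and 88.6% and 85.4% in picrotoxin libraries. For dag1.S it was 69.1% and 65.9% in control and 69.2% in both picrotoxin libraries, all but level with control replicate 1. The itga2b.1.S gene had a mean of 24.6 counts in a library. In the other genes of the set with more than 1 annotated transcript, the leading share overlapped between the groups. How often the groups are apart in this way over all genes was not counted. With 2 libraries a group, an exact permutation test of such a share cannot give a p under 0.333. In itgb1.S, by contrast, the leading of 4 transcripts took 76.7% to 80.5% in all libraries, and in lamc1.L the leading of 2 took 94.6% to 97.8%. Counting intervals (Wilson, 95%) were at most 1.45 points either way for fn1.S, 4.95 for itgb4.L, 2.99 for dag1.S and 18.9 for itga2b.1.S. They do not cover the error of assigning reads to transcripts, and the differences were not tested.

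The genes of the set were unevenly spread over chromosomes. Of the 49 tested, 18 (36.7%) lie on chromosomes 9_10L and 9_10S, which hold 12.8% of all genes tested. These 18 include both copies of itga3, itga4, itga6, itgb4 and itgb5, and also itgav.L, itgb2.L, itgb3.L, itgb6.L, lama5.L and fn1.S. On both subgenomes itga3 and an itga2b gene lie near each other with 3 annotated genes between them. The 18 had a median log2 fold change of 0.04, and 0 were called.

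The lists read beside the set, L and S copies apart, held 0 called genes. They are the cytoplasmic adaptors of integrins, other components and receptors of the basement membrane, and the dystrophin complex with the enzymes that glycosylate dystroglycan. Of 39 adaptor gene models tested, 0 rose and 0 fell at an adjusted p of 0.05, with a median log2 fold change of 0.11. At an unadjusted p under 0.05 there were 2 higher and 1 lower, beside 3.35% and 4.16% of all genes. The talin gene tln2.S, which binds beta tails, stood at 46.6 and 50.03 CPM in control and 59.6 and 57.7 CPM in picrotoxin libraries (log2 fold change 0.28, adjusted p = 0.471, edgeR). The vinculin gene vcl.S was at 0.26 and the paxillin gene pxn.L at -0.22.

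Among the other basement membrane genes 42 were tested, 0 rose and 0 fell, and the median was 0.07. At an unadjusted p under 0.05 there were 7 higher and 0 lower, beside 3.35% and 4.16% of all genes. The collagen XVIII gene col18a1.S stood at 57.2 and 54.3 CPM in control and 74.4 and 63.2 CPM in picrotoxin libraries (0.30, adjusted p = 0.450, edgeR). The laminin receptor gene bcam.L was at 0.29 and the matrix gene egfl6.S at 0.28. In the dystrophin and dystroglycan list 35 were tested, 0 rose and 0 fell, and the median was 0.07. At an unadjusted p under 0.05 there were 1 higher and 2 lower, beside the same shares of all genes. The glycosyltransferase genes b3galnt2.L and pomgnt2.L were at -0.26 and -0.36, and the biglycan gene bgn.L was at 0.27.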

How the data were processed

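Estimated counts for 80178 RefSeq transcripts in 4 libraries, not normalized, were deposited by the authors as 1 table. Libraries were directional, per the labels' protocols; the aligner, the counting tool and the build are not stated. All transcripts matched RefSeq's gene table for Xenopus_laevis_v10.1 by versioned accession and were summed to genes and rounded to whole counts. Genes were filtered with filterByExpr, scaled by TMM and tested with edgeR 4.0.16 (glmQLFit and glmQLFTest, robust, two-sided) in R 4.3.3, with Benjamini-Hochberg adjustment over 26752 genes. Standard errors and intervals derive from the F statistic. Within each group the libraries differed by more than counting error (chi-square over its degrees of freedom, 3.77 in control and 4.77 in picrotoxin). Alternatives used DESeq2 1.42.0, other scalings, filters and left-out libraries.

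The gene set and lists were chosen with earlier results of these data known. Values by library are given for the 6 genes of each role with the highest control CPM (length-scaled levels were planned, but no transcript lengths were used here), the 10 with the smallest p, and every called gene. For the lists, the 3 genes with the smallest p were named. Other genes were named to account for the set, and 1 gene that was not tested is not reported here. The myeloid genes mpo, lcp1 and spi1, and the pairs and transcripts shown, were chosen after their values were seen. So were the markers ckm.L, ckm.S, myod1.S, tp63, krt12.5.S, krt12.4.L, krt70, emx2.L, a2m.S, hbg2.L and cebpa.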

Additional observations from a re-analysis of the deposited data

How the results depend on the processing

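No gene of the set was called with DESeq2, relative log expression size factors, library totals only, no filter on low counts, a mean CPM of at least 1, chromosome medians removed or L and S copies summed. Leaving out each library in turn gave 0 to 1, the 1 being itgb2.L without picrotoxin replicate 1. Over all genes, 47 were called. There were 22 with DESeq2, 22 with library totals only, 29 with chromosome medians removed, 189 with no filter on low counts, and 15 to 158 with each library left out (15 without control replicate 2, 131 without picrotoxin replicate 1, 158 without picrotoxin replicate 2). The causes were not tested. Replicate numbers are shared between groups, but the labels do not say that they pair the pools. Same-numbered deviations correlated at -0.01 over 23597 genes. With the replicate number as a block, 41 genes and 0 of the set were called.

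The unadjusted p was under 0.05 for 3 of the set with DESeq2, beside 2.71% of all genes. With library totals only it was under 0.05 for 0 of the set, beside 3.22% of all genes. Scaling by library totals moved the median of all genes by 0.11 and that of the set from 0.06 to 0.18 (log2). Of 24 genes given by library under the rule, 15 kept their sign in every setting. These 15 include all 10 genes chosen for the smallest p, a choice that itself favours a steady sign. The sign turned in some setting for itga4.L, itga6.L, itgav.L, itgb1.L, itgb1.S, itgb4.S, itgb5.L, lama5.L and nid2.L. Depth limits itga1.S, itga8.S, itga11.L, itgb7.L, itgb8.S and itgbl1.S, which had 0 to 15 counts in a library and were not tested. The order of genes by length-scaled level and length-scaled L shares were not run, since no transcript lengths were used here.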
